A study of Homo sapiens with 18 samples.

Results

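MDA-MB-231 is a human triple-negative breast cancer cell line of mesenchymal character, grown as an adherent culture in DMEM with fetal bovine serum. The undrugged cultures of this line make up 6 of the 18 Illumina bead arrays of the study, which compared the bromodomain inhibitor OTX015 with its vehicle DMSO in this line and in MDA-MB-468, another triple-negative line. They were chosen by their labels as the untreated and the DMSO cultures of MDA-MB-231, with 1 array of each after 4, 8 and 24 h of incubation and no array given OTX015. The comparison asks which transcripts change with the hours in culture when no drug is given. Anything else that differed between the arrays of these times, such as harvest or RNA preparation, cannot be told apart from time. Untreated and DMSO cultures of a time served as the 2 samples of that time. No source names them as repeats of an experiment, so p-values measure the spread between these arrays, and any effect of DMSO is part of that spread. No culture before 4 h was profiled, and the time of 4 h is the earliest point against which change is measured.

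Cells that have been handled or given fresh serum switch on immediate early genes, whose short-lived transcripts encode transcription factors such as FOS and EGR1 and feedback inhibitors such as the phosphatase DUSP1. These transcripts need no new protein to appear and decay soon after the stimulus ends. Over longer times in one medium, cells use up nutrients and lipids of the serum, and the sterol-sensing factor SREBP then raises enzymes of cholesterol and fatty acid synthesis. Both are textbook responses of cultured cells, and neither was tested as a cause here.

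Vimentin mRNA (VIM), of the intermediate filament typical of mesenchymal cells, had a mean log2 signal of 13.43 ± 0.036 (SD, n = 6 arrays). CAV1, CD44 and ZEB1, the other mesenchymal markers, were above the signal floor on 6 of 6 arrays, and CDH1, KRT5, ESR1 and PGR were above it on 0 of 6. The matrix gene SPARC, listed as a marker of the line, was below the floor on all 6 arrays, and EPCAM, KRT18 and KRT19, listed as markers of MDA-MB-468, were above it on all 6. So were probes of EGFR, also listed for that line (means 9.41 and 7.42), and of the triple-negative marker ERBB2 (mean 8.38). Further probes of both genes were below it. KRT18 was higher than in undrugged MDA-MB-468 at both probes (7.96 beside 7.51 and 6.67 beside 6.17). CD44 was lower than there at each probe (11.88 beside 12.34 at the brightest). Each floor was set at percentile 95 of the signals that olfactory receptor probes had on that array, a family that these cells are not known to use. Of 47231 probes, 20416 lay above it on at least 2 of the 6 arrays and were tested, among them those of 11497 named genes. Mean array signals ran from 316 to 395 and were higher at 24 h (376 untreated, 395 DMSO) than at 4 h (357 and 316). Arrays of 1 time correlated at 0.996 to 0.997 over the tested probes, and arrays of different times at 0.990 to 0.996. These are correlations across probes, which are not independent replicates.

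Between 4 and 24 h, 72 probes rose (0.353% of those tested) and 145 fell (0.71%), 217 in all (1.06%), by limma, with a Benjamini-Hochberg adjusted p up to 0.05 and a shift of 0.5 or more on the log2 scale. By gene, 60 of 11497 rose (0.522%) and 91 fell (0.792%), 1.31% in all. The words rose and fell are kept for what passed both thresholds, and every fold change is a difference of log2 signals between the means of 2 arrays. The largest falls of named genes were those of RNA28SN5, FOS, CLEC2D and RNA18SN5, and the largest rises those of FUT8 and of the lipid synthesis genes MSMO1, INSIG1 and SCD. By 8 h, 1 probe had risen (0.0049%) and 24 had fallen (0.118%), 0.122% together and 0.165% of genes. From 8 to 24 h, 9 rose (0.0441%) and 8 fell (0.0392%), 0.0833% together. The count for 24 h against 4 h was 81 without the DMSO array of 24 h, 402 without the untreated array of 24 h and 390 without the untreated array of 4 h. Scaling the arrays to equal medians instead of equal quantiles gave 938 rises and 36 falls, with a median shift of 0.14 over all tested probes. FOS, FOSB, ATF3 and both probes of RNA28SN5 still fell under it.

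The clearest fall was that of FOS, which encodes a subunit of the transcription factor AP-1. Its log2 signal was 9.96 (untreated) and 9.81 (DMSO) at 4 h, 8.18 and 8.39 at 8 h, and 8.22 and 8.29 at 24 h. Both 4 h arrays stood above all 4 later arrays, and the later times overlapped. The log2 fold change was -1.60 from 4 to 8 h (standard error 0.09, adjusted p = 2.08e-06 from limma) and -1.63 from 4 to 24 h (adjusted p = 1.66e-06), with -0.03 between 8 and 24 h (adjusted p = 0.928). FOSB, a close relative of FOS, had 8.12 and 8.36 at 4 h, 6.85 and 6.95 at 8 h, and 7.08 and 7.46 at 24 h. It fell by 1.34 by 8 h (adjusted p = 0.000142) and by 0.97 by 24 h (adjusted p = 0.000715). ATF3, a stress-induced transcription factor gene, had 8.24 and 8.23 at 4 h, 7.20 and 7.21 at 8 h, and 7.33 and 7.30 at 24 h, a change of -1.03 by 8 h (adjusted p = 3.81e-05) and -0.92 by 24 h (adjusted p = 7.72e-05). For all 3 genes the fall was complete by 8 h, and no probe of them passed between 8 and 24 h.

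Regulatory sequences of 4 immediate early genes that fell by 8 h are shown because they share the letters TGACGT, a short form of the cAMP response element that CREB and ATF factors bind. FOS and FOSB passed by 8 h under each alternative tried, while EGR1 and DUSP1 did not, as given below with their values. They are from the RefSeq promoter table (GRCh38.p14), read 5′ to 3′ on the strand of the gene, with the matched letters in capitals and 30 bases on either side. FOS is at chr14:75278734-75278799 (plus strand) and FOSB at chr19:45467906-45467971 (plus strand), with matches that begin 64 and 60 bases before the annotated start. EGR1 is at chr5:138465382-138465447 (plus strand), 67 bases before the start, where TGACGT lies on the opposite strand and so reads as ACGTCA. DUSP1 is at chr5:172771283-172771350 (minus strand), 125 bases before the start, where 2 overlapping matches on the opposite strands make a palindrome.
FOS: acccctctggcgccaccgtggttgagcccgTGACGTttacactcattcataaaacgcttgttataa
FOSB: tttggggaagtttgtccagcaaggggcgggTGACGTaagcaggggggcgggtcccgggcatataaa
EGR1: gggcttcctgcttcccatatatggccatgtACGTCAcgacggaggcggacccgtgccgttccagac
DUSP1: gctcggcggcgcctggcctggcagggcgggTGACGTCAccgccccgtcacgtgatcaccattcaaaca
In the table, which covers 250 bases before and 50 after each start, TGACGT occurred on either strand in 7.98% of 35116 promoters. Of the 18 genes that fell by 8 h, 10 were in the table and 6 of these held the letters, HES1 and IL6 besides those printed. ATF3, CLEC2D, EDN1 and SGK1 did not hold them in this window. A match is a run of letters and no measurement of binding.

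Other signal-induced genes fell by 8 h and then lay between their 4 h and 8 h levels at 24 h. They were picked for their fall on these same 8 h arrays, which favours low 8 h levels. None of them passed from 8 to 24 h, so a return is not shown. DUSP1 had 11.93 and 11.70 at 4 h, 11.10 and 11.15 at 8 h, and 11.42 and 11.46 at 24 h, a log2 fold change of -0.69 by 8 h (adjusted p = 0.00594) and -0.38 by 24 h, under the fold change threshold. Its 3 times did not overlap, and 24 h lay above 8 h by 0.31 (adjusted p = 0.19), which did not pass. EGR1, a zinc finger transcription factor gene, had 9.46 and 9.60 at 4 h, 9.07 and 8.82 at 8 h, and 9.12 and 9.26 at 24 h, a fall of 0.59 by 8 h (adjusted p = 0.0342) and a change of -0.34 by 24 h (adjusted p = 0.0573). NR4A2, an orphan nuclear receptor gene, had 7.85 and 7.84 at 4 h, 7.13 and 7.14 at 8 h, and 7.22 and 7.41 at 24 h. It fell by 0.71 by 8 h (adjusted p = 0.00361) and by 0.53 by 24 h (adjusted p = 0.00541), and its second, dimmer probe had -0.46 and -0.41.

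HES1, a transcriptional repressor downstream of Notch, had 8.11 and 8.24 at 4 h, 7.42 and 7.37 at 8 h, and 7.63 and 7.76 at 24 h, and fell by 0.78 by 8 h (adjusted p = 0.00143). IL6, which encodes the cytokine interleukin 6, fell by 0.70 (adjusted p = 0.0159), from 8.39 and 8.31 to 7.47 and 7.83. EDN1, which encodes the vasoconstrictor peptide endothelin 1, fell by 0.64 (adjusted p = 0.00394), from 9.02 and 9.04 to 8.42 and 8.37. All 3 were higher at 24 h than at 8 h on both arrays, with differences of 0.30, 0.22 and 0.29 that did not pass. SGK1, a serum- and glucocorticoid-induced kinase gene, was read by 3 probes with -0.48, -0.56 and -0.58 by 8 h, of which the last 2 passed, and with -0.41 to -0.56 at 24 h. TERC, the RNA template of telomerase, fell by 0.68 by 8 h (adjusted p = 0.01), and GPKOW, a gene of a spliceosomal protein, fell by 0.64 (adjusted p = 0.0108). These calls rest on few arrays. Without the DMSO array of 8 h, DUSP1, EGR1, NR4A2, HES1, EDN1, SGK1, TERC and GPKOW did not pass (adjusted p from 0.0663 to 0.645), without the untreated array of 8 h IL6 did not (adjusted p = 0.172), and under median scaling none of these genes did. With treatment as a block, EGR1 had adjusted p = 0.0809 and 1 of the 2 SGK1 probes 0.0507.

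**Figure D1:**
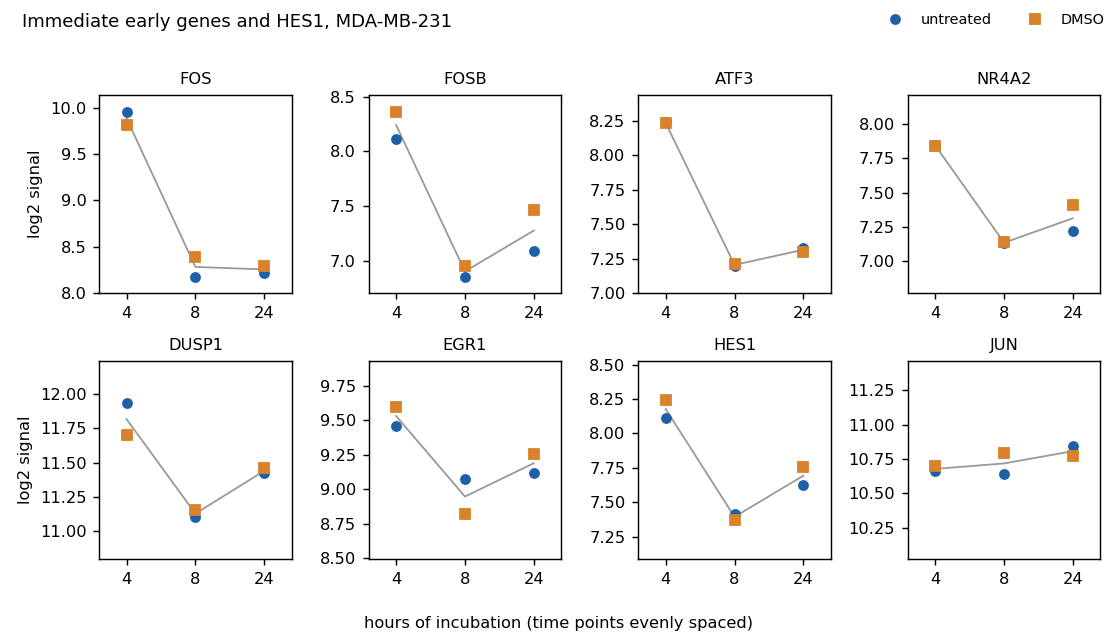
Log2 signal (vertical axes, each panel with its own range) of 8 genes at 4, 8 and 24 h in undrugged MDA-MB-231, with untreated arrays as circles, DMSO arrays as squares and a line through the mean of the 2 arrays. FOS falls from 9.96 and 9.81 at 4 h to 8.18 and 8.39 at 8 h and stays there, DUSP1, EGR1 and HES1 lie somewhat higher at 24 h than at 8 h, and JUN shows no such drop.

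Of 20 immediate early and AP-1 genes measured, 6 fell and none rose from 4 to 8 h, 5 fell and none rose from 4 to 24 h, and none passed from 8 to 24 h. Over all genes 0.157% fell by 8 h. The median log2 fold change of the list was -0.18 by 8 h and -0.14 by 24 h, beside -0.0025 and 0.0053 over all genes. Besides FOS, FOSB, ATF3 and NR4A2, the list's falls by 24 h included FOSL1, another AP-1 subunit gene, with -0.69 by 24 h (adjusted p = 0.00622), which had -0.30 by 8 h (adjusted p = 0.525). FOSL1 did not pass by 24 h without the DMSO array of 24 h (-0.52, adjusted p = 0.111) or under median scaling (-0.47), nor did NR4A2 under median scaling (-0.31) or without the untreated array of 24 h (-0.43). Members that did not pass in either step include JUN with 0.13 at 24 h, JUNB with -0.16, JUND with 0.04, IER3 with -0.02, and MYC with 0.05 and 0.10 at its 2 probes. ZFP36, which encodes a protein that promotes decay of cytokine mRNAs, had -0.47 by 8 h (adjusted p = 0.152). The list held 3 falls by 8 h without either 8 h array, and 4 by 24 h without either 24 h array. A single gene rose by 8 h (0.0087% of genes), SERTAD3, which encodes a transcriptional coregulator, from 7.86 and 7.93 to 8.36 and 8.43 (log2 fold change 0.50, adjusted p = 0.0267), and its second probe had -0.05. SERTAD3 did not pass under any other normalization, with no background correction (0.45) or with treatment as a block (limma, adjusted p = 0.0575). Without the DMSO array of 8 h it had 0.47, under the fold change threshold. With the 12 undrugged arrays of both lines setting the spread, 10 probes passed by 8 h, all of them lower, and without the DMSO array of 8 h there were 5, also all lower.

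Non-coding RNAs of the ribosome and the spliceosome made up the second group. RNA28SN5, the 28S RNA of the large ribosomal subunit, was read by 2 probes. The first had 9.98 and 9.44 at 4 h, 8.53 and 7.48 at 8 h, and 6.66 and 7.16 at 24 h, the largest change of any named probe that passed, with -2.80 from 4 to 24 h (standard error 0.25, adjusted p = 7.87e-05). Under moderation with a trend and robust estimate of the spread this probe had adjusted p = 0.0725 and the second still passed. The second had 10.10 and 9.97, 9.55 and 8.76, and 8.17 and 8.12, a change of -1.89 (standard error 0.17, adjusted p = 7.87e-05). At both probes the 3 times did not overlap, and the 8 h arrays differed between untreated and DMSO by more than those of the other times. RNA18SN5, the RNA of the small subunit, had 7.95 and 7.63 at 4 h, 7.52 and 7.31 at 8 h, and 6.55 and 6.80 at 24 h, a change of -1.11 (adjusted p = 0.00021). RNA5S9, a copy of the 5S RNA, had 8.64 and 8.91, 8.66 and 8.37, and 7.95 and 7.97, a change of -0.82 (adjusted p = 0.0015).

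RNU1-1, a copy of the U1 RNA that recognizes 5′ splice sites, had 8.32 and 8.46 at 4 h, 8.08 and 7.79 at 8 h, and 7.31 and 7.66 at 24 h, a difference of -0.91 (standard error 0.12, adjusted p = 0.00123). Other U1 genes or variants fell with it, RNVU1-18 by 0.96, RNU1-3 by 0.75 and RNVU1-7 by 0.69. RN7SK, the RNA that holds the elongation factor P-TEFb inactive, had a mean of 8.96 at 4 h and 8.45 at 24 h, a fall of 0.51 (adjusted p = 0.00472). Among the nucleolar RNAs, the U3 genes, which act in the first cleavages of the ribosomal precursor, fell by 0.90 (SNORD3D), 0.80 (SNORD3C) and 0.51 (SNORD3A). For SNORD3D the signals were 8.51 and 8.66 at 4 h, 7.89 and 7.85 at 8 h, and 7.53 and 7.82 at 24 h, so that most of the fall lay before 8 h. SNORD13, the U13 RNA, had 10.22 and 10.27, 9.44 and 9.31, and 9.67 and 9.62, a fall of 0.87 by 8 h (adjusted p = 0.000346) and of 0.60 by 24 h (adjusted p = 0.002). Under median scaling RN7SK (-0.25), SNORD3A (-0.27), SNORD13 (-0.36) and RNVU1-7 (-0.50) did not pass from 4 to 24 h, and without the DMSO array of 24 h RN7SK (adjusted p = 0.0703) and SNORD3A (adjusted p = 0.0746) did not.

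**Figure D2:**
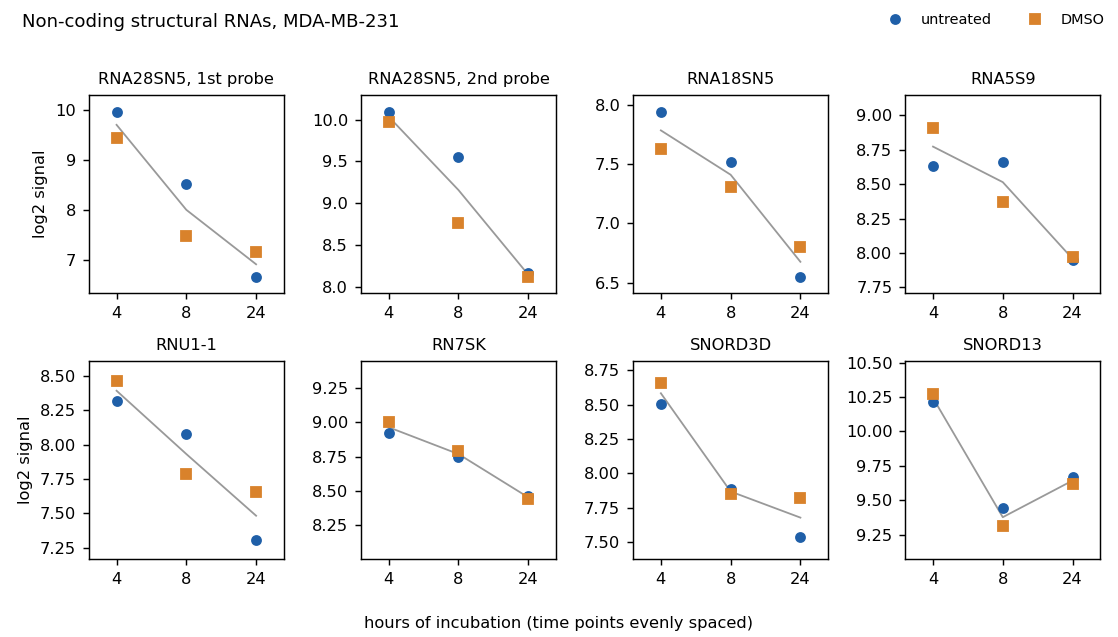
Log2 signal (vertical axes, each panel with its own range) of 8 probes of non-coding RNAs at 4, 8 and 24 h in undrugged MDA-MB-231, with untreated arrays as circles, DMSO arrays as squares and a line through the mean of the 2 arrays. Both RNA28SN5 probes, RNA18SN5 and RNA5S9 are lowest at 24 h on both arrays, while SNORD13 is lowest at 8 h.

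By RefSeq gene type, 3 of 3 measured rRNA genes fell from 4 to 24 h, 5 of 12 snRNA genes (RN7SK among them) and 4 of 127 snoRNA genes, and none of them rose, beside 0.792% of all genes that fell. These 3 classes were formed after their values were seen, and the counts describe them without a test. Their median log2 fold changes were -1.11, -0.41 and 0.02. The classes count genes that exist in near-identical copies, and the arrays cannot tell which copy of the 28S, 18S, 5S, U1 or U3 RNA was read, so their counts of genes are uncertain. None of these RNAs is a usual template of the labelling, which copies polyadenylated RNA. The labels give one RNA integrity minimum for all samples and no value per array, and the part of RNA quality in these falls was not tested. Without the DMSO array of 24 h the counts were 3 rRNA, 4 snRNA and 3 snoRNA genes, and under median scaling 3, 3 and 2, with 12 snoRNA genes then higher. SNORA12, a snoRNA of another family, was 0.63 higher at 24 h than at 8 h (adjusted p = 0.0258), with 7.91 and 8.02 at 4 h, 7.63 and 7.67 at 8 h, and 8.22 and 8.34 at 24 h. SCARNA14, a small non-coding RNA gene outside these 3 classes, rose by 0.53 from 4 to 24 h. It had 0.38 with no background correction and 0.40 in the deposited log2 table, under the fold change threshold.

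Lipid synthesis genes were among the largest rises, and most of their change came after 8 h. MSMO1, a sterol methyl oxidase of cholesterol synthesis, had 8.38 and 8.20 at 4 h, 8.42 and 8.58 at 8 h, and 9.12 and 9.11 at 24 h. It rose by 0.82 from 4 to 24 h (standard error 0.09, adjusted p = 0.000308) and by 0.62 from 8 to 24 h (adjusted p = 0.029), while its brighter second probe had 0.25 (adjusted p = 0.101) and a further one -0.05. INSIG1, which encodes a sterol-sensitive retention protein of the SREBP pathway and is itself an SREBP target, had 8.90 and 8.71, 9.01 and 9.16, and 9.57 and 9.61, a rise of 0.78 (adjusted p = 0.00049), and a dim second probe had 0.05. SCD, the desaturase that makes monounsaturated fatty acids, had 10.48 and 10.49, 10.61 and 10.62, and 11.13 and 11.29. It rose by 0.73 (adjusted p = 0.00049), of which 0.60 lay between 8 and 24 h (adjusted p = 0.0258), and the 24 h arrays stood above all 4 earlier ones.

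LPIN1, a phosphatidate phosphatase gene of glycerolipid synthesis, rose by 0.54 (adjusted p = 0.00558), from 9.06 and 8.93 at 4 h to 9.47 and 9.60 at 24 h. HMGCS1, the enzyme before the rate-limiting step of cholesterol synthesis, had 8.62 and 8.62 at 4 h and 9.03 and 9.01 at 24 h, a change of 0.40 that was under the fold change threshold (adjusted p = 0.0126). Of 18 cholesterol synthesis genes measured 2 rose and none fell, and of 14 fatty acid synthesis genes 2 rose and none fell, beside 0.522% of all genes that rose. Their medians were 0.04 and 0.17, close to 0 for the first list, so that the rises of MSMO1 and INSIG1 were not shared by most of it. FASN had 0.20, ACACA 0.36 and 0.27 at its 2 tested probes, SQLE 0.15 at its brighter probe, IDI1 0.12, CYP51A1 0.07, FDPS 0.04 and LSS 0.02, and none of these passed. LPIN1 lost its call without either DMSO array of 4 h or 24 h, with 0.48 in both cases, while MSMO1, INSIG1 and SCD passed under each of the 17 alternatives from 4 to 24 h. The letters TCACNCCAC, a form of the sterol regulatory element, occurred in 0 of the 4 promoters of MSMO1, INSIG1, SCD and LPIN1 in the window given above and in 1.13% of all promoters. No match says only that these letters are not in the window.

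**Figure D3:**
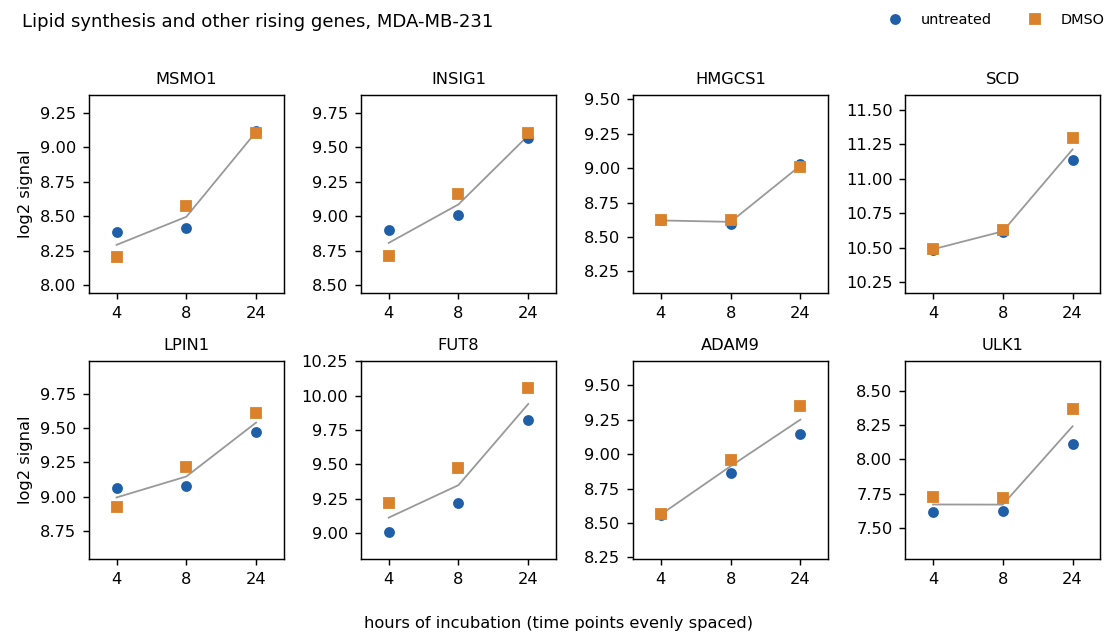
Log2 signal (vertical axes, each panel with its own range) of 8 genes at 4, 8 and 24 h in undrugged MDA-MB-231, with untreated arrays as circles, DMSO arrays as squares and a line through the mean of the 2 arrays. MSMO1, INSIG1, SCD and HMGCS1 are higher on both 24 h arrays than on any earlier array, and ADAM9 and FUT8 are higher at 24 h as well.

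FUT8, which adds the core fucose to N-glycans, had the largest rise, with 9.01 and 9.22 at 4 h, 9.22 and 9.48 at 8 h, and 9.82 and 10.05 at 24 h (log2 fold change 0.83, standard error 0.11, adjusted p = 0.00135). ADAM9, a membrane metalloprotease gene, had 8.56 and 8.56, 8.87 and 8.96, and 9.15 and 9.35, and rose by 0.69 (adjusted p = 0.00122) in about equal steps. NEK7, a kinase gene of mitosis and the inflammasome, rose by 0.68 and had 0.35 at a second probe. EXOSC8, a gene of the RNA exosome, rose by 0.66, and PHF21A, a reader of unmethylated histone H3, by 0.65. RAPGEF5, an exchange factor gene of the small GTPase Rap, rose by 0.64 from 6.69 and 6.67 to 7.33 and 7.31. CHEK2, the DNA damage checkpoint kinase gene, rose by 0.63 at one probe and had 0.14 at another. PPP2R2C, a regulatory subunit gene of phosphatase PP2A, rose by 0.63, and LARP6, which binds collagen mRNAs, rose by 0.61 at one probe while a brighter probe had -0.23. EXOSC8, NEK7, CHEK2 and LARP6 did not pass without the DMSO array of 24 h, with adjusted p from 0.0653 to 0.112. With the spread of both lines, ADAM9 (adjusted p = 0.0791), NEK7 (0.0504) and EXOSC8 (0.101) did not, and in the deposited log2 table RAPGEF5 and PPP2R2C had 0.48 and CHEK2 0.49, under the fold change threshold.

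Single members of further lists rose, where 0.522% of all genes did, and 1 gene describes no list as a whole. They were 1 of 27 extracellular matrix and protease genes, where MMP1 fell, and 1 of 27 lysosome and autophagy genes. The others were 1 of 20 glycolysis genes and 1 of 16 quiescence and CDK inhibitor genes. LAMA5, a laminin chain gene of basement membranes, rose by 0.60 (adjusted p = 0.00511), from 10.73 and 10.79 at 4 h to 11.21 and 11.51 at 24 h. ULK1, the kinase that starts autophagy, rose by 0.57 (adjusted p = 0.00616) and had a log2 fold change of 0.00 by 8 h, with 7.62 and 7.73 at 4 h, 7.63 and 7.72 at 8 h, and 8.11 and 8.37 at 24 h. PFKFB4, a regulator of glycolysis, rose by 0.53, and KLF9, a transcription factor gene, by 0.50, close to the threshold. LAMA5, ULK1, PFKFB4 and KLF9 did not pass without the DMSO array of 24 h. From 8 to 24 h, 9 genes rose (0.0783%) and 5 fell (0.0435%), namely AFMID, AP5S1, SHISA2, RNA18SN5 and RNA28SN5. The rises besides MSMO1, SCD, ULK1, PPP2R2C and SNORA12 were TMEM154, a membrane protein gene, with 0.63, CST1, a secreted cysteine protease inhibitor gene, with 0.54, DMBT1, a scavenger receptor gene, with 0.54, and SEL1L3 with 0.52. No probe passed from 8 to 24 h without the untreated array of 8 h (limma, 1505 probes at an unadjusted p under 0.05), and each of the 10 genes named by rule for this step lost its call without the DMSO array of 24 h.

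CLEC2D, a ligand gene of a natural killer cell receptor, had 10.26 and 9.88 at 4 h, 9.46 and 9.01 at 8 h, and 8.72 and 8.69 at 24 h at one probe, a difference of -1.37 (standard error 0.14, adjusted p = 0.000148). Its other tested probe was brighter, at 13.05 to 13.26 on all 6 arrays, and had 0.06, so that the 2 tested probes disagree. Further probes of the gene were below the floor on all 6 arrays. SHISA2, which encodes a protein that retains Wnt and FGF receptors in the endoplasmic reticulum, had 10.13 and 10.06, 9.85 and 9.60, and 9.11 and 8.93, a fall of 1.07 (adjusted p = 8.51e-05). AP5S1, an adaptor complex gene of endosomes, had 8.89 and 9.07, 8.56 and 8.50, and 8.01 and 7.87, a fall of 1.04 (adjusted p = 7.72e-05). COTL1, an actin-binding protein gene, fell by 0.94, from 9.54 and 9.65 to 8.75 and 8.56. CYP1B1, a cytochrome P450 gene of the aryl hydrocarbon receptor, fell by 0.93, from 9.37 and 9.28 to 8.37 and 8.41. For these last 4 genes the 3 times did not overlap, and the 8 h arrays lay between the others. They were picked as large falls on these same arrays. At all 145 probes that fell, the 4 h and 24 h arrays did not overlap, so this is not particular to them.

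AXL, a receptor tyrosine kinase gene that is high in mesenchymal breast cancer lines, had 10.97 and 10.74 at 4 h, 10.73 and 9.94 at 8 h, and 10.10 and 9.77 at 24 h, a difference of -0.92 (standard error 0.19, adjusted p = 0.0132). Its standard error was above the median of 0.0882 over all probes, the 2 arrays of 8 h differed by more than those of 4 h or 24 h, and it had -0.76 without the DMSO array of 24 h (adjusted p = 0.188) and adjusted p = 0.225 with trend and robust moderation. The second AXL probe had -0.49. AFMID, a formamidase gene of tryptophan breakdown, fell by 0.84, of which 0.51 lay between 8 and 24 h, and its second probe had -0.08. SRM, which encodes spermidine synthase, was the 1 gene of 33 ribosome biogenesis and MYC target genes that fell, with -0.72 (adjusted p = 0.00158), and the median of that list was -0.08. H2AC18, a histone H2A gene, fell by 0.67 and was the 1 of 21 clustered histone genes. SLC3A2, the heavy chain of amino acid transporters, fell by 0.57 as the 1 of 26 genes of the ATF4 amino acid response, and MMP1, an interstitial collagenase gene, fell by 0.51. Over all genes 0.792% fell. The shares of these lists were above that, yet each rests on a single gene and describes no list as a whole. Under median scaling SRM had -0.48, H2AC18 -0.41 (adjusted p = 0.0674) and SLC3A2 -0.31 (adjusted p = 0.11), and none of them passed. SLC3A2 also had adjusted p = 0.0572 without the DMSO array of 24 h and 0.0728 with the spread of both lines. MMP1 had -0.27 under median scaling, -0.39 under cyclic loess and -0.56 without the DMSO array of 24 h, and passed in none of them.

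Many programmes had no member that passed from 4 to 24 h, where 1.31% of all genes did, so that a count of 0 in lists of this size is near the background. None of 37 DNA replication genes, 47 mitosis genes or 20 genes of S phase entry passed, and their medians were -0.08, -0.04 and 0.06. MCM3, a subunit of the replicative helicase, had 0.09, and CCND1, the gene of cyclin D1, had 0.15. None of 18 hypoxia-induced genes passed (BNIP3 -0.03, ADM -0.26), nor did any of 17 genes of the unfolded protein response (HSP90B1 0.13), 16 heat shock genes (HSP90AA1 0.31, HSPA8 0.05), 14 NRF2 targets (FTL -0.17) or 13 clock genes (CSNK1E 0.39). The 32 interferon-stimulated genes, with IFITM2 at -0.27 and IFITM3 at -0.19, and the 14 antigen presentation genes, with B2M at 0.26, held none either. The 7 metallothionein genes had the lowest median of the lists fixed by pathway, -0.23, with 6 of 7 negative and MT2A at 0.05, and none passed. Of 14 reference genes none passed, with ACTB at 0.15 and GAPDH at -0.09. These are results at a median standard error of 0.0882 and do not show that the genes kept their level.

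**Figure D4:**
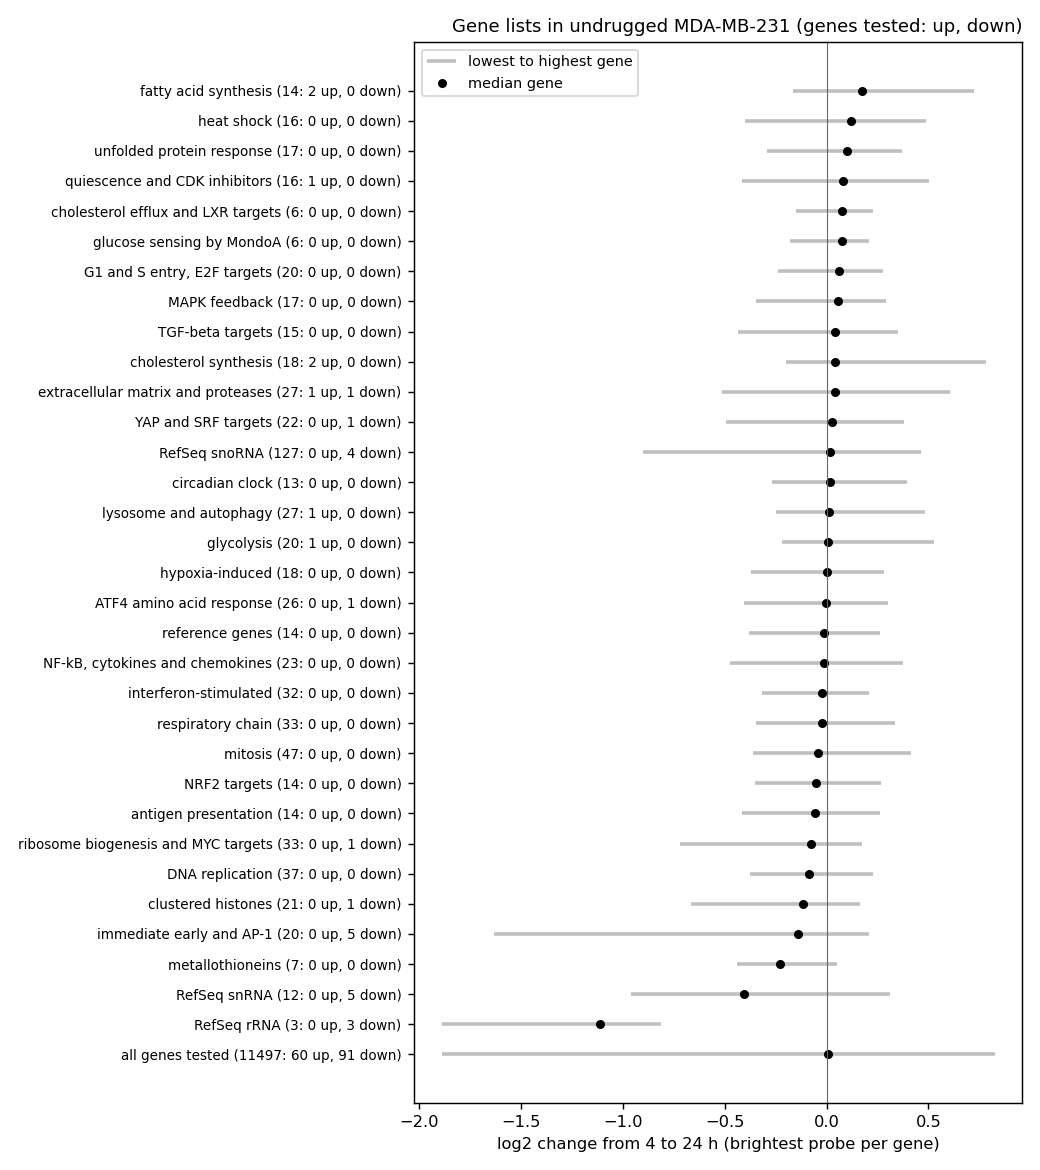
Log2 change from 4 to 24 h (horizontal axis) in undrugged MDA-MB-231 for each gene list, with the range over its genes as a bar and the median as a point, 1 brightest probe per gene. Each label gives the number of genes tested and how many rose or fell at any probe, from 3 of 3 rRNA genes lower to lists with none.

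Most probes that passed from 4 to 24 h had an 8 h mean between the ends, though falls such as those of FOS, FOSB and ATF3 were complete by 8 h. For the 72 probes that rose, the 8 h mean lay between those of 4 and 24 h in 69, and the median probe had reached 40.9% of its change by 8 h. For the 145 that fell, it lay between in 138, with a median of 45.5% reached by 8 h, and 5 lay below their 24 h mean at 8 h. These shares use the same arrays as the selection and describe it. Selection for a large change from 4 to 24 h favours an 8 h mean in between, and the share over all tested probes is not given here. The median change from 4 to 24 h was 0.49 (untreated) and 0.65 (DMSO) for the rises and -0.54 and -0.68 for the falls. The probes were selected on these same arrays, so a like sign in both treatments is no independent result. On the OTX015 arrays of MDA-MB-231, which took no part in the selection and give 1 array per time, the change from 4 to 24 h had the same sign for 69 of the 72 and 139 of the 145 probes, where 49.7% of all tested probes were higher at 24 h. The median there was 0.54 for the rises and -0.53 for the falls. These are single-array differences with no replicate check. Several leading falls were nearer 0 there than without the drug, with -0.35 and -1.02 at the RNA28SN5 probes, -0.61 for FOS, -0.83 for CLEC2D, -0.13 for FOSB and -0.06 for RNA18SN5, and SNORD13 had 0.17. ATF3 had -0.92, as without the drug, and SHISA2 -1.17.

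Of the probes that fell, 53 of 145 (36.6%) carried no gene name in the annotation used, and of those that rose 11 of 72 (15.3%), beside 25.2% of all tested probes. They are counted above and named nowhere.

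The other line did not follow the same course. In undrugged MDA-MB-468 the change from 4 to 24 h had the same sign for 31 of the 72 rises and 63 of the 145 falls, where 42.5% of all tested probes were higher at 24 h. The difference between the lines in that change, tested as an interaction on 12 arrays, passed at 4056 of 23559 probes (17.2%, of which MDA-MB-468 had the higher change at 9.04% and the lower at 8.18%), and at 45 of the 72 and 96 of the 145, which were picked on the same MDA-MB-231 arrays. Undrugged MDA-MB-468 changed at 13.3% of the probes, 8.17% higher and 5.12% lower. Its 4 h arrays stand apart: ALDOA, a glycolytic enzyme gene, had a mean of 6.82 there at 4 h, 12.54 at 8 h and 12.13 at 24 h. When 24 h was set against 8 h in both lines instead, which leaves the 4 h arrays of both lines out of the contrast, 11 probes differed, and none of the 25 probes named as changed in MDA-MB-231 whose change from 4 to 24 h had differed between the lines was among them (limma, 11 of the 25 at an unadjusted p under 0.05). That contrast cannot show a change completed by 8 h, such as that of FOS (-0.03 from 8 to 24 h in MDA-MB-231). It therefore does not tell whether the lines differed before 8 h. FOS fell in both lines, at -1.63 for MDA-MB-231 beside -0.59 for MDA-MB-468, as did ATF3 with -0.92 and -1.21, while INSIG1 had 0.78 and -0.35 and SCD 0.73 and 0.01. Immediate early genes did not go one way in MDA-MB-468. There FOSB had 0.51 and EGR1 0.70, beside -0.97 and -0.34 in MDA-MB-231, while DUSP1 had -1.35 beside -0.38. All these changes in MDA-MB-468 rest on its 4 h arrays.

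**Figure D5:**
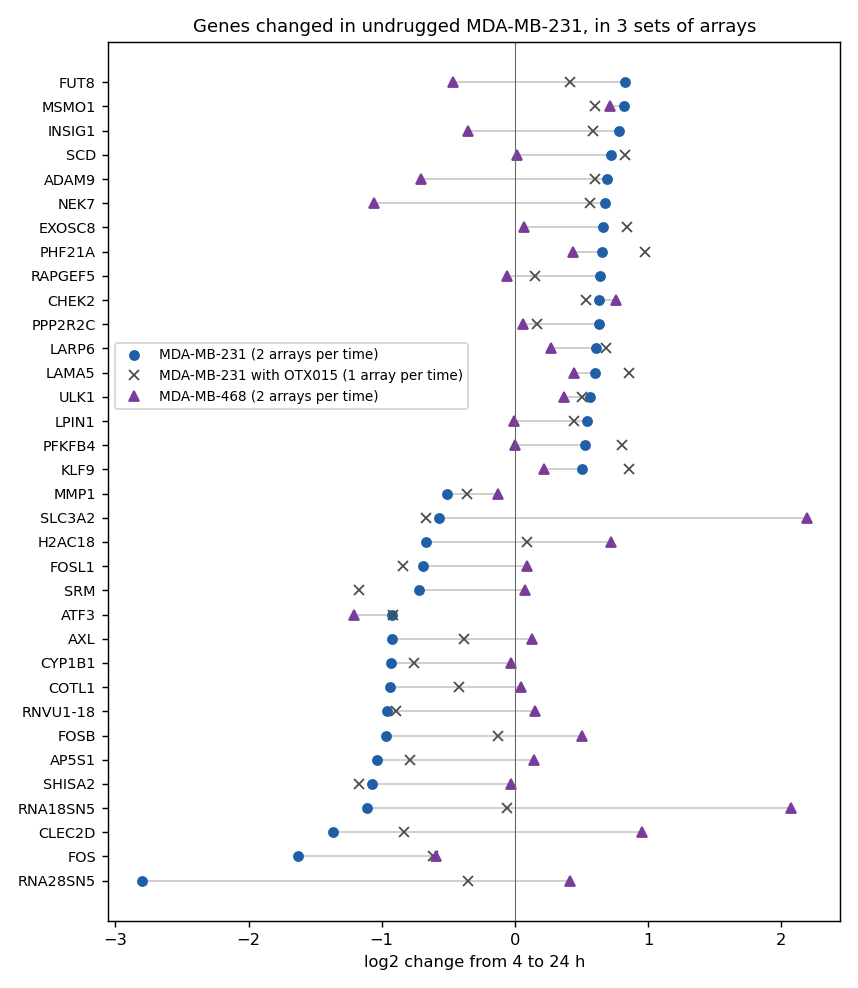
Log2 change from 4 to 24 h (horizontal axis) of genes that passed in undrugged MDA-MB-231, for undrugged MDA-MB-231 (circles), MDA-MB-231 with OTX015 (crosses, 1 array per time) and undrugged MDA-MB-468 (triangles). ATF3 and FOS are negative in all 3 sets, FOSB is negative in both sets of MDA-MB-231 and positive in MDA-MB-468, and FUT8, ADAM9 and NEK7 are positive in both sets of MDA-MB-231 and negative in MDA-MB-468.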

How the data were processed

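The authors hybridized RNA on Illumina HumanHT-12 v4 BeadChips and deposited scanner intensities exported with GenomeStudio, 1 mean bead signal per probe on a linear scale, with no background subtraction or normalization apparent and no detection p-value or control probes. They also deposited a log2 table normalized between arrays, whose steps none of the sources used here gives. On the 6 arrays it ranked probes as the intensities did, and its median distance from log2 intensities after quantile normalization was 0.0053.

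Background was removed from the intensities by normexp (offset 50) in limma 3.58.1 under R 4.3.3, and they were quantile-normalized over all 18 arrays and put on the log2 scale. Of 30113 probes annotated with 1 gene, 30074 were given the RefSeq symbol by gene identifier. The fit had time as a factor with 3 levels and 3 residual degrees of freedom, and the fit of both lines had 6. A gene rose or fell where any of its probes passed, and list medians used the brightest probe per gene. Of 747 genes in 32 lists, 590 were tested. On simulated data of 20416 probes, 24 h against 4 h recovered 50% of probes changed by 0.5 and 100% of those changed by 0.75 or more, with 0 false calls. The simulated noise was independent for each probe and held no shift shared by an array, and a change of 0.5 equals the cut-off. It therefore checks the code and cannot show how far calls on the real arrays hold. Slide positions were not used here. The number of arrays limits the precision.

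The members and lists were chosen with earlier results of these data known. Genes were named by rule (the 12 largest rises and falls from 4 to 24 h, up to 4 passing members per list or the 2 brightest where none passed, the 5 largest in each direction for the other steps, and the 6 largest line differences of either sign). The other genes that passed by 8 h or after, members with values beside them, the RNA classes and the genes in the closing section were picked after their values were seen. Alternatives varied the background correction, normalization, filter, treatment as a block, moderation, spread and arrays. Plots were made in matplotlib 3.10.9.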

Additional observations from a re-analysis of the deposited data

Results flagged for a closer look

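The change from 4 to 24 h differed between the lines at 4056 probes by the interaction test in limma, and the values here are the change in MDA-MB-468 minus that in MDA-MB-231. Among the genes that rose in MDA-MB-231 the difference was -1.74 for NEK7, -1.40 for ADAM9, -1.29 for FUT8 and -1.13 for INSIG1. It was -0.71 for SCD, -0.70 for RAPGEF5, -0.57 for PPP2R2C, -0.55 for LPIN1 and -0.52 for PFKFB4. Among the genes that fell it was 3.69 and 3.22 at the RNA28SN5 probes, 3.19 for RNA18SN5 and 1.11 for RNVU1-18. AP-1 genes differed by 1.47 (FOSB), 1.04 (FOS) and 0.77 (FOSL1). Further differences were 2.76 for SLC3A2, 2.32 for CLEC2D, 1.39 for H2AC18, 1.18 for AP5S1, 1.05 for SHISA2, 1.05 for AXL, 0.98 for COTL1, 0.91 for CYP1B1 and 0.80 for SRM. With 24 h set against 8 h in both lines, which leaves out the 4 h arrays of both lines, none of these 25 probes differed (limma, adjusted p from 0.149 to 0.971, 11 at an unadjusted p under 0.05). NEK7 then had -0.57 (adjusted p = 0.454), and 3 probes turned sign, with -0.55 (adjusted p = 0.697) at the RNA28SN5 probe that had 3.69, 0.11 for LPIN1 and 0.18 for PFKFB4. This contrast cannot show changes completed by 8 h, such as that of FOS, and does not tell whether the lines differed before 8 h.

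The largest positive differences lay in genes that were low in the 4 h arrays of MDA-MB-468, with 5.52 for ALDOA, 4.74 for ACTG1, 4.38 for SDF4, 3.80 for AP1S1 and 3.50 for FBLN1. Their changes in MDA-MB-231 lay between -0.22 and 0.15, and with 24 h set against 8 h in both lines none of these 5 differed (adjusted p from 0.617 to 0.988). The largest negative ones were -1.85 for DKK1, -1.82 for APP, -1.62 for NCKAP1, -1.59 for CPM and -1.50 for SAFB. Of these, DKK1, which encodes a secreted Wnt inhibitor, still differed from 8 to 24 h, by -1.03 (adjusted p = 0.0113).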

How the results depend on the processing

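For 24 h against 4 h, 217 probes passed, and 135 with no background correction, 101 in the deposited log2 table, 974 under median scaling (938 higher, 36 lower) and 81 to 402 without 1 array, while the other alternatives gave 177 to 220. For 8 h against 4 h, 25 passed, and 5 under median scaling, 10 with the spread of both lines and 5 to 22 without 1 array. For 24 h against 8 h, 17 passed, and 29 with the 6 arrays normalized alone, 36 under cyclic loess, 34 with no filter, 8 with treatment as a block, 32 with trend and robust moderation and 0 to 38 without 1 array. It was 0 under median scaling and with the spread of both lines (limma, 2672 and 2113 probes at an unadjusted p under 0.05). The difference between the lines passed at 4056 probes, 12070 under median scaling, 11 for 24 h against 8 h (an alternative chosen after seeing the data), and 3325 to 5351 without 1 array. The cause of these shifts was not tested. Of 34 named probes that passed from 4 to 24 h, 15 kept their call under all 17 alternatives, 13 lost it without the DMSO array of 24 h and none turned its sign. By 8 h, 4 of 6 kept it under all alternatives, and for 24 h against 8 h none of 10 did. The labels give no replicate numbers, and the arrays could be paired across times by treatment alone. With treatment as a block, 216 of the 217 probes still passed from 4 to 24 h. With 2 arrays per time and 1 experiment, changes near 0.5 are at the limit of these data, and genes below the floor have no value.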

Other observations

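Further genes that passed from 4 to 24 h, picked after their values were seen, include secreted and signalling genes. NAMPT, the rate-limiting enzyme of NAD salvage, had 0.54 and 0.47 at its 2 probes, of which the first passed (adjusted p = 0.00633 from limma). CD274, which encodes the immune checkpoint ligand PD-L1, rose by 0.53 (adjusted p = 0.0082), from 6.73 and 6.61 at 4 h to 7.22 and 7.17 at 24 h. NOCT, a circadian NADPH phosphatase gene, fell by 0.77 (adjusted p = 0.00265), from 8.02 and 7.89 to 7.06 and 7.31. PEBP1, which encodes an inhibitor of RAF signalling, fell by 0.86 (adjusted p = 0.00192), from 11.30 and 11.47 to 10.73 and 10.31. GPRC5A, an orphan receptor gene induced by retinoic acid, fell by 0.62, NOG, which encodes the BMP antagonist noggin, by 0.62, and IGFBP1, a binding protein gene of insulin-like growth factors, by 0.52. ASF1B, a histone chaperone gene of S phase, fell by 0.64 (adjusted p = 0.0143), from 10.83 and 11.09 to 10.55 and 10.09, while no gene of the DNA replication list passed. Without the DMSO array of 24 h, ASF1B had -0.41 (adjusted p = 0.188), IGFBP1 -0.44 (adjusted p = 0.146) and CD274 0.55 (adjusted p = 0.0883), and none of them passed. Under median scaling IGFBP1 had -0.27, GPRC5A -0.39, ASF1B -0.43 and NOG -0.43, which did not pass either. CD274 had 0.39 in the deposited log2 table, and NAMPT 0.45 without the untreated array of 4 h and 0.47 without that of 24 h, all under the fold change threshold.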
